A study of Mus musculus with 9 samples.

Results

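The levels of 5 mouse genes of nitric oxide signaling were described in punches of a hypothalamic nucleus, the paraventricular nucleus (PVN): Nos1, Nos3, Nos1ap, Prkg1 and Prkg2. They were chosen by name, as 2 nitric oxide synthases, the adaptor protein of the neuronal synthase and both cGMP-dependent protein kinases, out of 27179 genes in the count table. The set was drawn up with the levels of Nos1 in these same mice known, so the values of the 5 genes are given as a description and without p-values. All 5 passed the filter on low counts, as did 17344 genes in all.

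Nitric oxide is a short-lived gas made from arginine by nitric oxide synthases, of which the neuronal form (Nos1) is held near NMDA receptors and is switched on by calcium and calmodulin. It binds soluble guanylate cyclase, which then makes cGMP, and cGMP in turn activates the kinases encoded by Prkg1 and Prkg2 until phosphodiesterases remove it. In the PVN, neuronal nitric oxide synthase is found in magnocellular and in preautonomic neurons, and nitric oxide there is known for restraining sympathetic outflow and hormone release.

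RNA was sequenced from PVN punches of 9 male wild-type C57BL/6 mice (C57BL/6J in the paper's methods), 3 in each of 3 groups, with total counts of 17728590 to 42326213 per sample. The Control diet was chow, in which fat supplied 16% of the energy, fed for 12 weeks. HFD mice were fed a high fat diet, in which fat supplied 60% of the energy, for the same time. HFD+Mino mice ate the high fat diet and were given minocycline, an antibiotic that dampens microglial activation, at 40 mg/kg/day in their drinking water over the last 6 weeks. The paper puts the age at the start of the diet at 5 weeks, and the labels give postnatal day 35. The comparison of HFD with Control addressed the diet, and that of HFD+Mino with HFD the drug given on the diet. No group received minocycline on chow. The 3 samples of a group came from separate mice.

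Several libraries stood apart in the genes that mark the PVN. In Control replicate 1, vasopressin (Avp) was at 0.149 CPM (counts scaled to a library of common size, with edgeR's TMM factors), oxytocin (Oxt) and the PVN transcription factor Sim1 were both at 0.770 CPM, and Otp had 0 counts. Summed oligodendrocyte markers reached 26101 CPM in that library against 1866 to 5899 CPM in the other 8. Control replicate 2 held 2560 CPM of Pmch and 812 CPM of Hcrt, both genes of lateral hypothalamic neurons, with Avp at 157 CPM. HFD+Mino replicates 1 and 2 held 28049 and 22180 CPM of Avp. In the remaining 5 libraries, Control replicate 3, HFD replicates 1 to 3 and HFD+Mino replicate 3, Avp lay between 590 and 1984 CPM, and the 6 PVN markers summed to between 2479 and 3726 CPM. That sum is carried by Avp and Oxt, and the other markers were less even in these 5 libraries, with Sim1 at 2.51 CPM in HFD+Mino replicate 3 and 10.8 to 21.6 CPM in the other 4, Crh at 14.4 to 52.6 CPM and Otp at 0.519 to 2.77 CPM. Tcf7l2, a marker of neighbouring nuclei, was at 53.0, 306 and 283 CPM in HFD replicates 1 to 3. It was at 131 CPM in Control replicate 3 and 185 CPM in HFD+Mino replicate 3, so these 5 libraries were not even in that marker either. Values from these 5 libraries alone are given beside the results below. In that fit Control and HFD+Mino each had 1 library, whose spread was assumed to be like that of the HFD libraries.

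Nos1, the neuronal synthase, was the gene of the 5 whose level differed most between groups. RefSeq places it (Entrez 18125) on the plus strand at chr5:117866839-117958840 of GRCm38, while GENCODE starts the gene at position 117781032 with additional upstream first exons. The 250 bases before the RefSeq start are shown because Nos1 differed most of the 5 genes. The window, chr5:117866589-117866838 on the plus strand in RefSeq's GRCm38.p6, overlapped 0 GENCODE exons, and 4 of the 7 GENCODE transcripts of Nos1 span it, so in those transcripts it is intronic sequence before an internal exon and not a promoter. Capitals mark TGACG or its reverse complement CGTCA, the core of the element that CREB binds, and GGGCGG or CCGCCC, the GC box. The sequence is written 5′ to 3′.
Nos1 window: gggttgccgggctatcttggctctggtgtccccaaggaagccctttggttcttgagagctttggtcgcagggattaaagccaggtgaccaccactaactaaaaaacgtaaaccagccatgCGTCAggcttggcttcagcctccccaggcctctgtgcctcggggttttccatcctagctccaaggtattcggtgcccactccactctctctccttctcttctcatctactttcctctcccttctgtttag
The window had 54% G or C and 6 CpG sites, with 1 CGTCA and 0 GC boxes. Of 32851 windows of the same 250 bases before RefSeq starts, 17.8% held TGACG or CGTCA and 32.7% held a GC box on either strand, and the median was 52.4% G or C with 6 CpG sites.

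Nos1 stood at 32.7, 34.0 and 27.8 CPM in HFD replicates 1 to 3. It stood at 2.56, 2.51 and 9.83 CPM in Control replicates 1 to 3, and at 2.94, 2.56 and 6.47 CPM in HFD+Mino replicates 1 to 3. All 3 HFD mice lay above all 6 other mice, and in both other groups replicate 3 was the highest. These levels rest on 652 to 1171 reads in the HFD libraries and 69 to 334 reads in the others. The group means were 31.5 ± 3.24 CPM in HFD, 4.97 ± 4.21 CPM in Control and 3.99 ± 2.16 CPM in HFD+Mino (SD, n = 3 each).

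The fitted difference of Nos1 was 2.67 ± 0.55 (SE) on the log2 scale in HFD against Control, a 6.35-fold higher level. In HFD+Mino against HFD it was -2.97 ± 0.56 on the log2 scale, a 7.85-fold lower level. HFD+Mino and Control differed by -0.31 ± 0.53 on the log2 scale, less than its standard error, and their mice overlapped. Control replicate 3 weighed on the size of the first difference, which was 3.63 on the log2 scale without it, and without it HFD+Mino lay 0.66 above Control. Without HFD+Mino replicate 3 the difference between HFD+Mino and HFD was -3.51. As these are bulk samples, fewer cells that express Nos1 and less Nos1 RNA per cell cannot be told apart.

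Without the 4 libraries that stood apart in their region markers, the difference of Nos1 was smaller. In the remaining 5 libraries, the 3 HFD mice at 27.8 to 34.0 CPM were still above Control replicate 3 at 9.83 CPM and HFD+Mino replicate 3 at 6.47 CPM. The log2 difference in these 5 libraries alone was 1.63 ± 0.23 (SE) in HFD against Control and -2.30 ± 0.24 in HFD+Mino against HFD, both smaller in size than with all 9 libraries. The libraries with the most Avp, HFD+Mino replicates 1 and 2, had 2.94 and 2.56 CPM of Nos1, and the library with the least, Control replicate 1, had 2.56 CPM. The part of the punched region in the Nos1 difference was not tested.

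**Figure D1:**
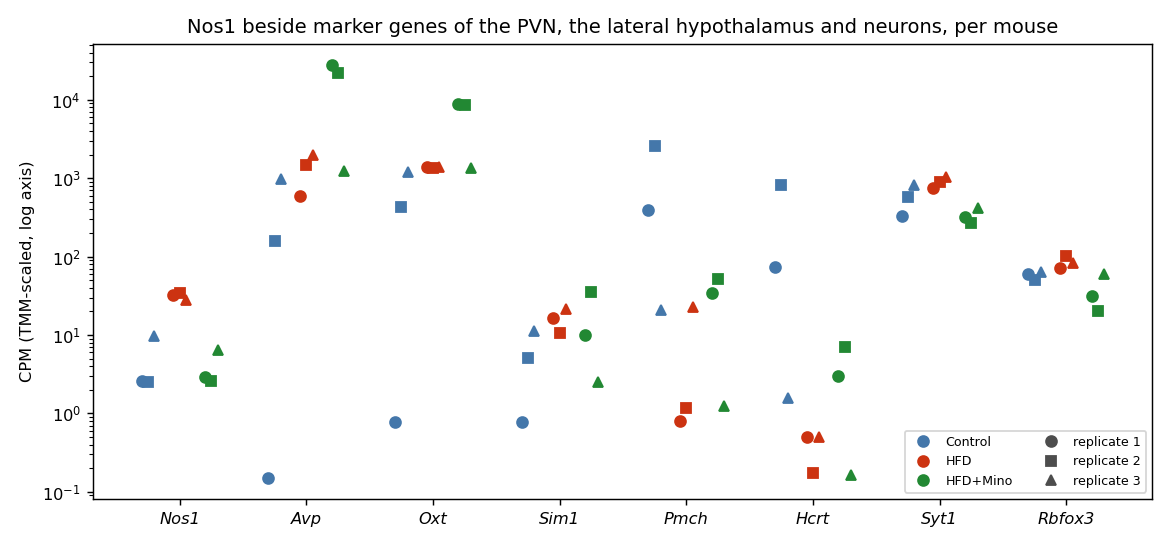
Level in CPM (log axis) of Nos1, of the PVN genes Avp, Oxt and Sim1, of the lateral hypothalamic genes Pmch and Hcrt, and of the neuronal genes Syt1 and Rbfox3 in each of the 9 mice, with color for the group and symbol for the replicate. Nos1 lies between 27.8 and 34.0 CPM in the 3 HFD mice and between 2.51 and 9.83 CPM in the others, while Avp runs from 0.149 CPM in Control replicate 1 to 28049 CPM in HFD+Mino replicate 1.

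General neuronal markers also moved between the groups, and in different directions. Syt1, a synaptic vesicle calcium sensor, ranged from 755 to 1038 CPM in HFD, from 332 to 808 CPM in Control and from 265 to 415 CPM in HFD+Mino. Rbfox3, which encodes the neuronal marker NeuN, ranged from 70.9 to 102 CPM in HFD, from 50.3 to 63.1 CPM in Control and from 20.2 to 59.6 CPM in HFD+Mino. HFD mice were thus the highest in Rbfox3, and all but 1 of them were above every other mouse in Syt1. The 4 neuron markers together, all detected in every library, summed to 2701 to 4380 CPM in HFD, 3679 to 6296 CPM in Control and 3159 to 3643 CPM in HFD+Mino, a sum carried mostly by Snap25, a synaptic membrane protein gene at 1428 to 2574 CPM in HFD, 2318 to 5366 CPM in Control and 2138 to 2540 CPM in HFD+Mino. The single markers thus went different ways. Per 1000 CPM of these 4 markers, Nos1 stood at 12.1, 8.68 and 6.35 in HFD, at 0.406, 0.559 and 2.67 in Control and at 0.808, 0.770 and 2.05 in HFD+Mino. HFD lay above all other mice on that scale as well. The part of neuron content in the Nos1 difference was not tested.

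Nos1 has a long transcript, and long genes as a whole differed between the groups. Its GENCODE exons cover 11151 nt, more than in 93.1% of the tested genes that have a length. The median log2 difference of HFD against Control was 0.48 in the longest decile of the tested genes and -0.27 in the shortest decile, and that of HFD+Mino against HFD was -0.60 and 1.10. Among 817 tested genes with 10000 to 13000 nt of exon, Nos1 included, 816 had a smaller difference of HFD against Control than Nos1. In HFD+Mino against HFD 3 had a lower value than Nos1. As Nos1 was chosen with its values known, nothing is read from these ranks. With the trend of each sample on exon length removed, Nos1 differed by 2.33 ± 0.49 (SE) on the log2 scale in HFD against Control and by -2.38 ± 0.50 in HFD+Mino against HFD. With the trend on GC content removed it differed by 2.69 and -2.95. A stretch of 268 nt, 2.4% of the Nos1 exons, lies opposite the antisense gene Gm26995, and since the library kits do not mark strand, reads of the genes cannot be told apart there.

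Nos3 encodes the endothelial synthase, which is made in the lining of blood vessels and relaxes them. It (Entrez 18127) lies on the plus strand at chr5:24364816-24384474. Its level was 9.19, 9.09 and 10.5 CPM in Control replicates 1 to 3, 9.74, 12.5 and 11.7 CPM in HFD, and 12.2, 8.43 and 7.76 CPM in HFD+Mino. The 3 groups overlapped, and Nos3 was the most even of the 5 genes across the mice. HFD and Control differed by 0.24 ± 0.27 (SE) on the log2 scale, HFD+Mino and HFD by -0.26 ± 0.27, and HFD+Mino and Control by -0.02 ± 0.27, each less than its standard error. The 6 endothelial markers, all detected in every library, summed to 98.9 to 154 CPM in Control, 88.0 to 117 CPM in HFD and 56.9 to 99.0 CPM in HFD+Mino. Cldn5 was lower in HFD, at 21.8 to 28.5 CPM against 42.0 to 84.7 CPM in Control. Flt1 was higher in HFD, at 26.1 to 36.3 CPM against 16.3 to 22.0 CPM in Control, and the other markers overlapped between these 2 groups. Reads of Nos3 are partly uncertain, since 1040 nt or 25.2% of its exons lie opposite the antisense gene Gm15587 and 294 nt opposite Atg9b, which itself stood at 7.72 to 17.4 CPM.

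Nos2, the inducible synthase made mainly by activated immune cells and microglia, was near the limit of detection, with 3 to 64 reads per library. It stood at 0.0994, 0.762 and 0.324 CPM in Control replicates 1 to 3, 0.803, 0.406 and 1.59 CPM in HFD, and 0.103, 0.297 and 0.328 CPM in HFD+Mino. Its differences of 1.24 ± 0.88 (SE) in HFD against Control and -1.93 ± 0.91 in HFD+Mino against HFD on the log2 scale did not pass the test (adjusted p = 0.451 and 0.130, edgeR's quasi-likelihood F-test, Benjamini-Hochberg adjusted over all tested genes). The 4 microglial markers summed to 66.1 to 108 CPM in Control, 102 to 110 CPM in HFD and 93.1 to 102 CPM in HFD+Mino. Single markers went different ways. Cx3cr1 was at 31.4 to 39.4 CPM in HFD, 18.0 to 25.5 CPM in Control and 22.8 to 26.0 CPM in HFD+Mino. Aif1 was at 5.97 to 7.19 CPM in HFD, 4.62 to 14.9 CPM in Control and 8.77 to 23.7 CPM in HFD+Mino. Tmem119 was at 26.4 to 31.0 CPM in HFD, 19.7 to 20.5 CPM in Control and 12.1 to 28.1 CPM in HFD+Mino. Cx3cr1 and Tmem119 were thus higher in every HFD mouse than in every Control mouse. P2ry12 overlapped between all groups.

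Nos1ap encodes the adaptor that competes with the postsynaptic scaffold PSD-95 for the neuronal synthase. It (Entrez 70729) lies on the minus strand at chr1:170315467-170589849. Its level was 16.7, 19.0 and 25.8 CPM in Control replicates 1 to 3, 22.7, 34.0 and 30.1 CPM in HFD, and 14.7, 8.51 and 30.3 CPM in HFD+Mino. The HFD mice overlapped with both other groups, and HFD+Mino spread widely, with replicate 3 at the HFD level and replicates 1 and 2 below all other mice. HFD and Control differed by 0.50 ± 0.40 (SE) on the log2 scale and HFD+Mino and HFD by -0.70 ± 0.40. In the 5 libraries alone the same differences were 0.11 ± 0.24 and 0.048 ± 0.234, and without HFD+Mino replicate 3 the difference between HFD+Mino and HFD was -1.32. A stretch of 171 nt, 2.36% of its exons, is shared with Gm7694 on the same strand.

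**Figure D2:**
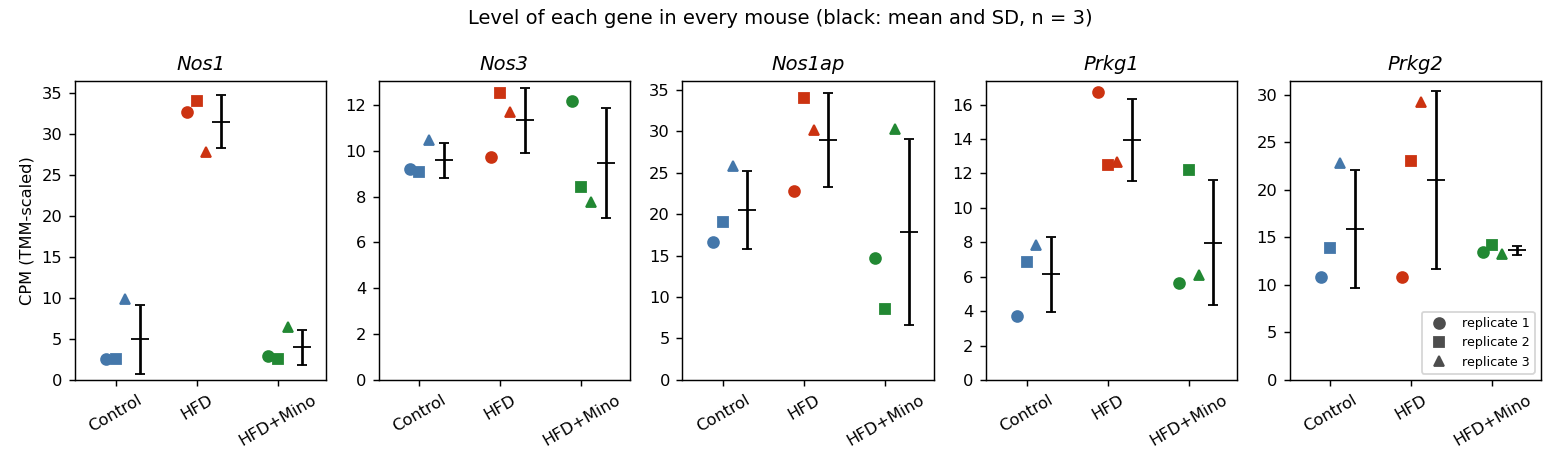
Level in CPM of Nos1, Nos3, Nos1ap, Prkg1 and Prkg2 in each mouse of the 3 groups, each panel with its own linear axis from 0, with symbols for the replicates and black bars for the mean and SD (n = 3). HFD mice lie above all others for Nos1 and, narrowly, for Prkg1 (12.5 CPM against 12.2 CPM), and overlap with the other groups for Nos3, Nos1ap and Prkg2.

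Prkg1 encodes the type I cGMP-dependent kinase, a cytosolic enzyme of smooth muscle and of several kinds of neurons. It (Entrez 19091) lies on the minus strand and spans 1200.8 kb, at chr19:30564487-31765268. Its Iα and Iβ forms differ in their first exon. RefSeq gives 2 starts, and the 250 bases before one of them are shown because Prkg1 was the other gene whose HFD mice lay above all others. This window, chr19:31664371-31664620 on the minus strand, overlapped 0 GENCODE exons, and 1 of the 7 GENCODE transcripts of Prkg1 spans it. Capitals mark the same motifs as in the Nos1 window.
Prkg1 window: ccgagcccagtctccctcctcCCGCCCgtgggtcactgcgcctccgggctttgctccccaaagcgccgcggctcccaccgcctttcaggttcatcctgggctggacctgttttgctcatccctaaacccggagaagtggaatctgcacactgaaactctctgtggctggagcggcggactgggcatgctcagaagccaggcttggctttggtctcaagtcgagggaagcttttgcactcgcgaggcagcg
It had 62.8% G or C and 16 CpG sites, above the median of all windows in both, with 1 GC box and 0 TGACG or CGTCA. The window before the other start, chr19:31765034-31765283, is not shown. It had 55.2% G or C, 9 CpG sites and 1 GC box, and 0 of the 7 GENCODE transcripts span it. Which of the Iα and Iβ forms begins at which start was not examined.

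Prkg1 stood at 16.7, 12.5 and 12.7 CPM in HFD replicates 1 to 3, at 3.70, 6.83 and 7.86 CPM in Control, and at 5.65, 12.2 and 6.12 CPM in HFD+Mino. All 3 HFD mice were above the 6 others, though HFD+Mino replicate 2 came close to the lowest of them. The difference of HFD against Control was 1.18 ± 0.38 (SE) on the log2 scale, a 2.27-fold higher level, and that of HFD+Mino against HFD was -0.80 ± 0.38. HFD+Mino lay 0.38 ± 0.38 above Control, with overlapping mice. In the 5 libraries alone HFD against Control was 0.77 ± 0.28 and HFD+Mino against HFD was -1.20 ± 0.29.

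Prkg1 is also long, and its 10861 nt of exon exceed those of 92.6% of tested genes. With the exon length trend removed, HFD against Control was 0.80 ± 0.35 (SE) on the log2 scale, and HFD+Mino against HFD shrank to -0.22 ± 0.34. Among the 817 genes of similar length, Prkg1 included, 728 had a smaller difference of HFD against Control than Prkg1. In HFD+Mino against HFD 315 had a lower difference than Prkg1. The 6 markers of mural cells, the smooth muscle cells and pericytes of vessels, were all detected in every library and summed to 40.9 to 49.6 CPM in HFD, 54.8 to 97.3 CPM in Control and 37.9 to 106 CPM in HFD+Mino. Acta2 was the largest of these markers in HFD+Mino and in Control replicates 1 and 2, but not in HFD or in Control replicate 3. It was at no more than 13.5 CPM in HFD, 17.6 to 54.7 CPM in Control and 13.6 to 48.4 CPM in HFD+Mino. The pericyte marker Pdgfrb went another way, at 17.5 to 19.7 CPM in HFD, 9.84 to 19.2 CPM in Control and 4.75 to 7.24 CPM in HFD+Mino, and the smooth muscle marker Myh11 was at 2.51 to 4.31, 2.18 to 5.03 and 0.632 to 1.48 CPM. The parts of exon length and of mural cell content in the Prkg1 difference were not tested.

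Prkg2 encodes the type II kinase, which is anchored to membranes. It (Entrez 19092) lies on the minus strand at chr5:98929773-99037375. Its level was 10.9, 13.9 and 22.8 CPM in Control replicates 1 to 3, 10.8, 23.1 and 29.2 CPM in HFD, and 13.5, 14.2 and 13.2 CPM in HFD+Mino. HFD replicate 1 was the lowest of the 9 mice and HFD replicate 3 the highest, and the groups overlapped. HFD and Control differed by 0.41 ± 0.37 (SE) on the log2 scale and HFD+Mino and HFD by -0.63 ± 0.37, and in the 5 libraries alone HFD against Control was -0.17 ± 0.45.

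Of the 5 genes, Nos1 alone was called in the 3-way test, with HFD the highest group (false discovery rate, FDR, under 0.01 and HFD 1.5-fold or more above the mean over groups, edgeR's quasi-likelihood test), where 0.917% of all tested genes were called. None of the 5 was called in HFD against Control, where 0.317% of tested genes were called higher and 1.42% lower. Nos1 was called lower in HFD+Mino against HFD, where 2.16% of tested genes were called lower and 1.98% higher. All 3 HFD mice lay above the 6 others in 2 of the 5 genes, beside 13.4% of all tested genes. As the values of Nos1 in these comparisons were known when the genes were chosen, nothing is read from these counts. Both calls of Nos1 were lost with the exon length trend removed, and without Control replicate 2, any HFD replicate or HFD+Mino replicate 1 or 2. In the 5 libraries alone both were kept. With the mice of Control and HFD+Mino blocked by replicate number, Nos1 was also called higher in HFD against Control, as it was with the block in all 9 samples, by DESeq2, without a filter on low counts, with the GC trend removed, without Control replicate 3 or HFD+Mino replicate 3, and in the 5 libraries alone.

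**Figure D3:**
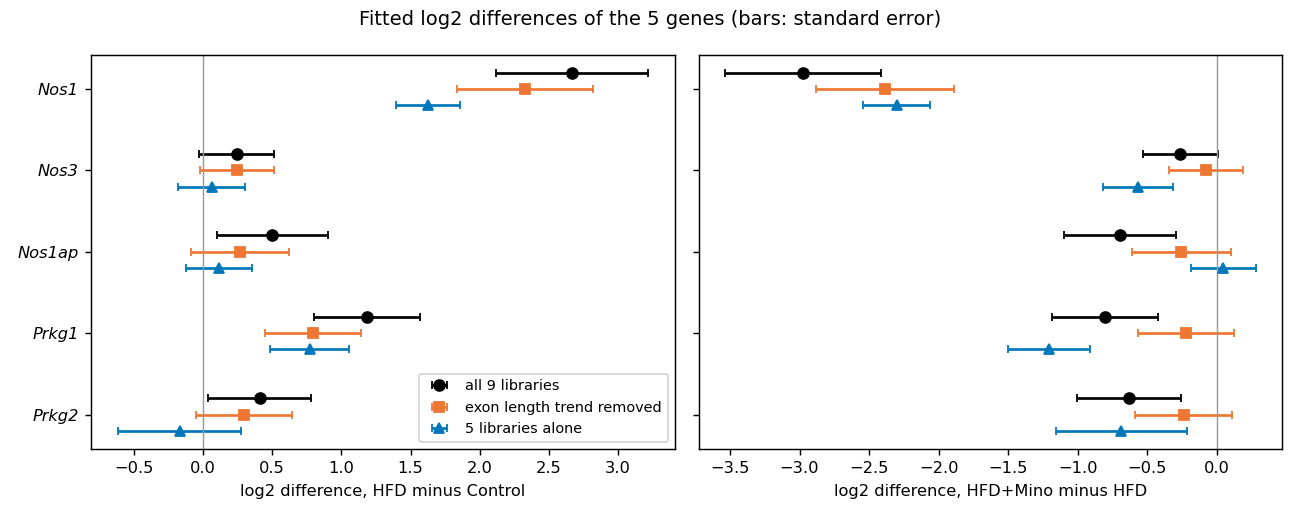
Fitted log2 differences (points) with their standard errors (bars) of the 5 genes in HFD against Control and in HFD+Mino against HFD, with all 9 libraries, with the trend on exon length removed, and in the 5 libraries left without the 4 that stood apart in their region markers. Nos1 keeps its sign in all 3 fits (2.67, 2.33 and 1.63 in the first comparison), and so does Prkg1, which falls to -0.22 in HFD+Mino against HFD without the length trend.

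Compared per kilobase of exon, the order of the genes changed between the groups. In Control, Prkg2 stood at 2.95 ± 1.15 CPM per kb, Nos1ap at 2.82 ± 0.65, Nos3 at 2.32 ± 0.18, Prkg1 at 0.565 ± 0.199 and Nos1 at 0.446 ± 0.378 (SD, n = 3). The first 3 did not differ beyond their spread, nor did the last 2. In HFD, Nos1ap stood at 3.99 ± 0.79 CPM per kb, Prkg2 at 3.92 ± 1.75, Nos1 at 2.83 ± 0.29, Nos3 at 2.74 ± 0.35 and Prkg1 at 1.28 ± 0.22. Nos1 thus stood at the level of Nos3 in HFD mice, which was higher than the level of 43.1% of tested genes, and in Control mice at the level of Prkg1, higher than 16.2% of them. In HFD+Mino, Nos1 at 0.358 ± 0.193 CPM per kb was again the lowest of the 5, above 14.0% of tested genes.

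**Figure D4:**
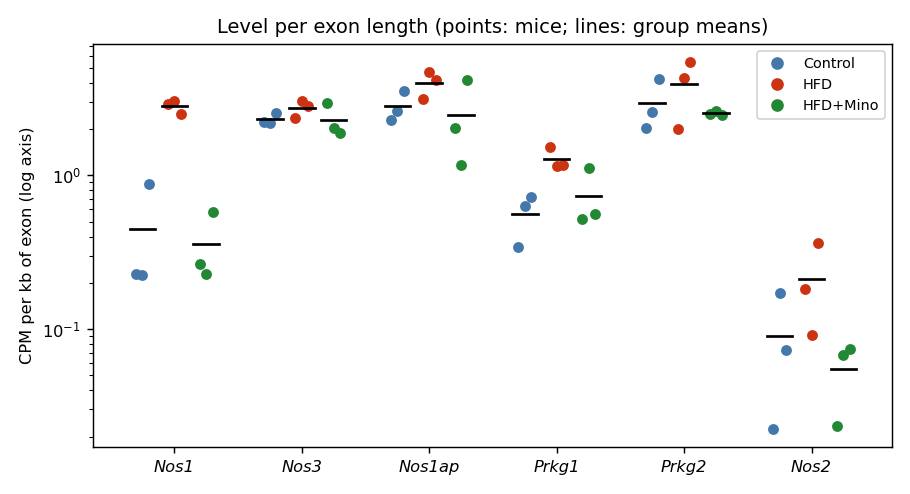
Level in CPM per kb of exon (log axis) of the 5 genes and of Nos2 in each mouse (points) with the group means (lines). Nos1 is at 2.83 CPM per kb in HFD, beside Nos3 at 2.74, and at 0.446 in Control and 0.358 in HFD+Mino, while Nos2 is below 0.4 CPM per kb in every mouse.

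The 5 genes were also compared by their likeness over the 9 mice. Likeness was measured as the root mean square difference of log2(CPM + 1), each gene centred on its own mean. By this measure Nos1 lay 1.03 to 1.30 from each of the other 4 genes, while those lay 0.38 to 0.74 from each other. The measure is not scaled, so the size of a change enters it as well as its shape. As Nos1 was chosen with its values known, nothing is read from its distance to the other 4. Among the 5 tested genes nearest to Nos1 were Pcdhga3 at 0.25, Taok2 at 0.30, Pcdhga10 at 0.35 and Prag1 at 0.36. Pcdhga3 and Pcdhga10 encode cell adhesion molecules of the gamma protocadherin cluster, whose members share their last exons, so their reads are uncertain. Taok2 encodes a protein kinase, at 21.4 CPM in Control, 83.8 CPM in HFD and 14.7 CPM in HFD+Mino. The nearest genes were Ptpn11 and 4930432J09Rik for Nos3, Strn4 and Zfp213 for Nos1ap, Dync2h1 and Fndc3b for Prkg1, and Klf8 and Zbtb43 for Prkg2, at 0.07 to 0.19. Of these, 4930432J09Rik was near the limit of detection, at 0.209 CPM in Control, 0.302 CPM in HFD and 0.137 CPM in HFD+Mino. With 1 added to each CPM such a gene is nearly flat, so its nearness to Nos3 says little. Dync2h1, a motor protein of cilia, followed Prkg1 at 36.2 CPM in Control, 71.8 CPM in HFD and 46.6 CPM in HFD+Mino.

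Around these 5 genes, 77 other genes of the pathway were examined, of which 74 passed the filter on low counts and Nppb, Cnga1 and Cngb3 did not. In the 3-way test 1 of the 74 was called, Hcn2, with HFD the lowest group, where 1.21% of all tested genes were called. In HFD against Control 1 of 74 was called, again Hcn2, which was lower, as were 1.42% of all tested genes. In HFD+Mino against HFD 1 of 74 was called, Rgs2, which was higher, as were 1.98% of all tested genes. In HFD+Mino against Control 0 of 74 were called and 0% of all tested genes, by edgeR's quasi-likelihood test. At an unadjusted p under 0.05 that comparison had 18 of the 74 and 3697 of all genes (21.3%), and DESeq2 called 1 and 271 (1.56%). All 3 HFD mice lay above the 6 others in 6 of the 74, beside 13.4% of all tested genes. With Control and HFD+Mino blocked by replicate number the counts were 7 in the 3-way test, 12 in HFD+Mino against HFD and 2 in HFD+Mino against Control, and with the block in all 9 samples HFD+Mino against HFD gave 4. Without HFD+Mino replicate 3 the 3-way test called 13, HFD+Mino against HFD 12 and HFD+Mino against Control 5.

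Hcn2 encodes a pacemaker channel that cyclic nucleotides modulate. It stood at 74.2, 34.2 and 41.0 CPM in Control replicates 1 to 3, at 1.05, 2.09 and 2.29 CPM in HFD, and at 6.98, 2.34 and 26.1 CPM in HFD+Mino. All HFD mice were below all others, with HFD replicate 3 and HFD+Mino replicate 2 almost level. Hcn2 fell by 4.76 ± 0.78 (SE) on the log2 scale in HFD against Control (adjusted p = 0.0057, edgeR's quasi-likelihood F-test, Benjamini-Hochberg adjusted) and differed by -4.51 in the 5 libraries alone. The adjusted p of that test rose to between 0.012 and 0.044 when Control replicate 1 or 2, any HFD replicate or HFD+Mino replicate 1 was left out, which ends the call, while the log2 difference stayed between -4.96 and -4.35. The longest transcript of Hcn2 has 65.4% G or C, more than that of 99.7% of tested genes. With the trend on GC content removed the difference was -4.47.

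Rgs2 encodes a regulator of G protein signaling that the type I kinase phosphorylates. It stood at 228, 303 and 126 CPM in HFD+Mino replicates 1 to 3, at 71.2, 81.2 and 75.4 CPM in HFD, and at 98.9, 129 and 119 CPM in Control. HFD mice were below all others, and HFD+Mino replicates 1 and 2, which also had the most Avp, were the highest. Rgs2 rose by 1.53 ± 0.29 (SE) on the log2 scale in HFD+Mino against HFD (adjusted p = 0.0086, edgeR's quasi-likelihood F-test, Benjamini-Hochberg adjusted). In the 5 libraries alone the difference was 0.72 and not called. The call was also lost without Control replicate 2, any HFD replicate or HFD+Mino replicate 1 or 2, and with the length trend removed, where the adjusted p of the same edgeR test was between 0.011 and 0.050. The log2 difference was 1.60 with the length trend removed and between 1.22 and 1.58 in those leave-outs, the lowest without HFD+Mino replicate 2.

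Soluble guanylate cyclase, the receptor of nitric oxide, is a dimer of an alpha and a beta subunit. None of its 4 subunit genes passed the test. Gucy1a1 ranged from 45.7 to 79.4 CPM in HFD, from 46.5 to 83.2 CPM in Control and from 26.9 to 43.7 CPM in HFD+Mino. Gucy1b1 ranged from 49.2 to 57.5 CPM in HFD, from 57.9 to 81.2 CPM in Control and from 33.2 to 60.8 CPM in HFD+Mino. Gucy1a1 in HFD+Mino was thus below every mouse of the other groups, with a difference of -0.84 ± 0.30 (SE) on the log2 scale from HFD (adjusted p = 0.059, edgeR's quasi-likelihood F-test, Benjamini-Hochberg adjusted). Gucy1a2 was between 8.03 and 19.7 CPM with overlapping groups, and Gucy1b2 was low, at 0.273 to 2.50 CPM.

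The lists by role held few or no calls by edgeR's quasi-likelihood test. Over all tested genes, 20.5% had an unadjusted p under 0.05 and DESeq2 called 6.84% in HFD against Control, and 41.3% and 22.4% in HFD+Mino against HFD, beside which the counts of each list are to be read. A list of 21 genes held scaffolds and activators of the neuronal synthase (NMDA receptor subunits, PSD-95, syntrophin, calmodulins, heat shock protein 90 and others). Also in it were Nosip, Nostrin and Cav1, regulators of the endothelial synthase. In HFD against Control 0 of the 21 were called, where 4 had an unadjusted p under 0.05 and DESeq2 called 1. In HFD+Mino against HFD 0 of these 21 were called, where 11 had an unadjusted p under 0.05 and DESeq2 called 5. Their median log2 difference was -0.28 in HFD against Control, with 8 of 21 positive, and 0.36 in HFD+Mino against HFD, with 15 positive.

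Among 15 genes of arginine and tetrahydrobiopterin supply, the substrate and the cofactor of the synthases, edgeR called 0 in either comparison, beside 1 and 6 at an unadjusted p under 0.05 and 0 and 3 by DESeq2. Their medians were -0.20 in HFD against Control and 0.59 in HFD+Mino against HFD. The 10 phosphodiesterases that degrade cGMP had a median of 0.54 in HFD against Control, with 8 of 10 positive, and of -0.49 in HFD+Mino against HFD, with 2 of 10 positive. For them edgeR called 0 in either comparison, beside 3 and 3 at an unadjusted p under 0.05 and 0 and 2 by DESeq2.

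The 15 tested cGMP effectors and kinase substrates, which hold Hcn2 and Rgs2, had medians of 0.70 in HFD against Control and -0.67 in HFD+Mino against HFD. The 9 tested guanylate cyclase and natriuretic peptide genes had medians of 0.16 and 0.07, and the 3 genes of nitrosothiol removal -0.16 and 0.47. In both of these lists edgeR called 0 genes in either comparison, with 0 and 2 of the 9 and 0 and 1 of the 3 at an unadjusted p under 0.05, and DESeq2 called 0 of the 9 and 0 and 1 of the 3. Over all tested genes the medians were 0.0043 and 0.0089. In the longest decile of tested genes they were 0.48 and -0.60, and in the shortest decile -0.27 and 1.10. The genes of the lists by role differ in exon length, and the part of length in the list medians was not tested.

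**Figure D5:**
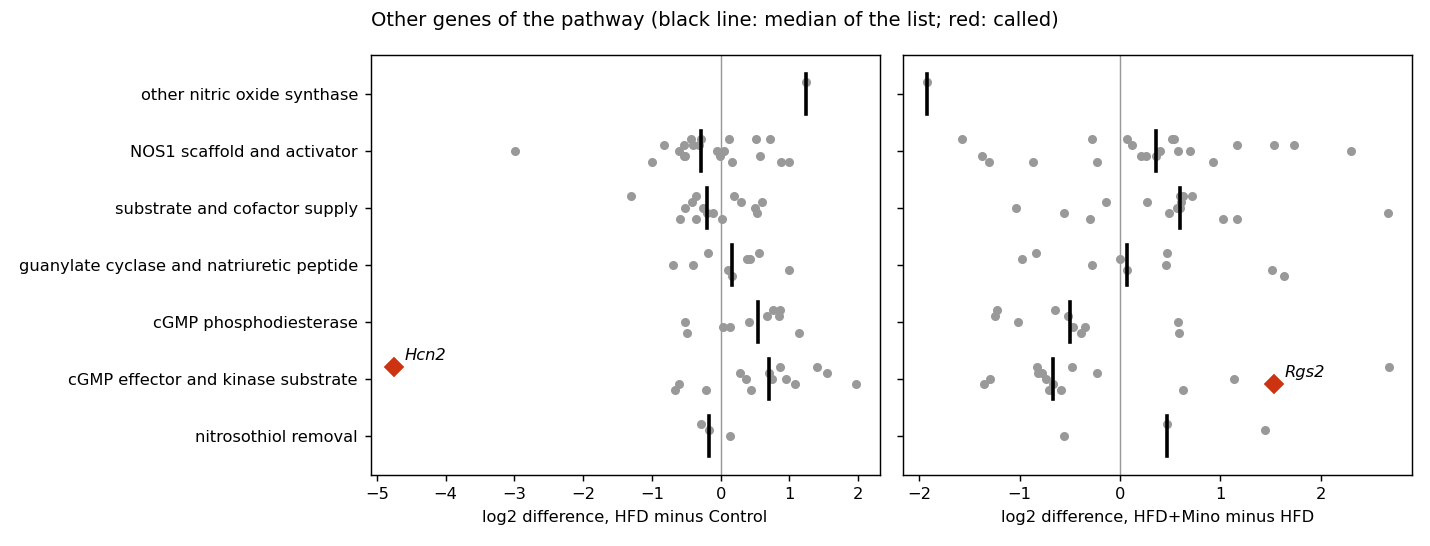
Fitted log2 difference of each of the 74 other tested pathway genes (points), by role, in HFD against Control and in HFD+Mino against HFD, with the median of each list as a black line and the called genes in red. Hcn2 at -4.76 and Rgs2 at 1.53 are the called genes, and the medians of the phosphodiesterases (0.54 and -0.49) and of the effectors (0.70 and -0.67) lie on opposite sides of 0 in the 2 comparisons. The HFD mice enter both comparisons with opposite sign, which by itself favors such opposite values.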

How the data were processed

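The authors aligned paired reads of amplified cDNA (SMARTer Ultra Low Input and Nextera XT kits, which do not mark strand) to mm10 by HISAT2, counted reads per gene by featureCounts, and deposited the raw counts by Entrez identifier. The strand setting and the treatment of multi-mapping reads are not given in the sources used here. Amplification can favor transcripts by length or GC content, so trends on both (GENCODE, GRCm38, 21572 of 27179 genes matched) were also removed. Counts were fitted with edgeR 4.0.16 in R 4.3.3: TMM scaling, filterByExpr, 1 quasi-likelihood model with a mean per group for all 9 samples. A gene was called at an FDR under 0.01 and at least 1.5-fold, as in the paper. CPM use TMM-scaled library sizes, SDs are over 3 mice, and total counts set a precision finer than the spread between mice. The code was tested on simulated data. Tables were made with pandas 2.3.3 in Python 3.11.15. Alternatives were DESeq2 1.42.0, RLE scaling, no low-count filter, an FDR under 0.05, no fold threshold, counts without Rn45s and mitochondrial genes, blocking by replicate number, each sample left out, and, chosen after seeing the data, 5 libraries alone. Deviations of same-numbered samples of Control and HFD+Mino from their group means had correlations of 0.135, 0.163 and 0.292. With HFD they were all negative, at -0.133, -0.109 and -0.00624 for Control and -0.152, -0.125 and -0.0522 for HFD+Mino. These come from the counts alone. Differently numbered samples were not compared, so the values do not show that the mice were paired. Replicate numbers follow the sample titles. In the count table the HFD mice carry other numbers than those of Control and HFD+Mino. The block in all 9 samples thus has no known pairing of HFD mice behind it. No 2 replicates agreed within sampling noise. The 5 genes and all lists were chosen with earlier results of these data known. Named genes were the 5, the called pathway genes, Nos2, the soluble guanylate cyclase subunits, the 5 genes nearest to Nos1 (1 is not reported here), the 2 nearest to each other gene, and markers.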

Additional observations from a re-analysis of the deposited data

How the results depend on the processing

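Of 270 recomputed differences of the 5 genes, 256 moved by less than 1 SD and 14 moved by more. Nos1 kept its sign in HFD against Control (1.63 to 3.63) and in HFD+Mino against HFD (-3.51 to -2.30) under all 18 settings, while in HFD+Mino against Control it ran from -0.85 to 0.66. Leaving out 1 library at a time gave Nos1 differences of 2.35 to 3.63, -3.51 to -2.73 and -0.85 to 0.66 in these 3 comparisons, with the extremes set by replicates 1 and 3 of Control and 2 and 3 of HFD+Mino. In the 5 libraries alone Nos1 was at 1.63 and -2.30, Nos3 at 0.062, -0.56 and -0.50 (HFD against Control, HFD+Mino against HFD, HFD+Mino against Control), Nos1ap at 0.11 and 0.048, Prkg1 at -0.43 and Prkg2 at -0.85 in HFD+Mino against Control. With the exon length trend removed HFD+Mino against HFD was -2.38 for Nos1 and -0.22 for Prkg1. On total counts without TMM scaling Prkg2 averaged 12.6 CPM in HFD+Mino, and 1 of the 2 nearest genes was shared for Nos3 and likewise for Nos1ap.

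Counts of called pathway genes, 1, 1, 1 and 0 in the 3-way test, HFD against Control, HFD+Mino against HFD and HFD+Mino against Control, moved with the setting, and the cause was not tested. DESeq2 gave 8, 3, 14 and 1, and an FDR under 0.05 gave 7, 2, 16 and 0. Without a filter on low counts the 3-way test gave 4 and HFD+Mino against HFD 7. Blocking Control and HFD+Mino by replicate number gave 7, 1, 12 and 2, and the replicate block in all 9 samples 1, 1, 4 and 0. Either block also made Nos1 called in HFD against Control and changed no other call of the 5 genes. With the GC trend removed the 3-way test gave 3 and HFD+Mino against HFD 8, and with the length trend removed the latter gave 0. The 5 libraries alone gave 3, 3, 2 and 0. Leaving out 1 library at a time gave 0 to 13, 0 to 1, 0 to 12 and 0 to 5, highest without HFD+Mino replicate 3 in all but HFD against Control. RLE size factors, Rn45s and mitochondrial genes left out, and no fold threshold changed none of these counts. With 3 mice a group, differences of the size of the group spread could not be resolved, and reads carry no molecular identifiers.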
